A study of Sus scrofa with 48 samples.

Results

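Iron absorption and storage genes were followed across ileum and hypothalamus of weaned piglets (Sus scrofa). The list holds 9 genes chosen for their known function, with earlier results of these data already known. They were looked up by symbol among 22924 Ensembl gene identifiers, of which 14894 had a symbol. A row was found for 8 of the 9, and FTH1, the heavy chain of ferritin, was not matched and is not analysed here. The 48 libraries fall into 8 groups of 6, which are low growth and high growth piglets on day 39 and on day 7, in ileum, where the small intestine ends, and in hypothalamus, the brain region that governs feeding and hormone release. All piglets were weaned, and growth class was set by daily weight gain up to sampling, so that the classes of day 39 and day 7 rest on gain over different spans. The labels give no intervention beyond growth class and no breed, sex, litter or age, and libraries of ileum and hypothalamus are not tied to the same piglet. Whole tissue was sequenced from polyA RNA, so fewer cells of a type and less RNA per cell cannot be told apart. HBB, the beta chain of haemoglobin, was measured beside the iron genes as the mark of red blood cells in each library.

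Iron enters the intestinal cell after it is reduced at the brush border, a step in which the reductase CYBRD1 takes part, and is carried inward by the metal transporter SLC11A2. Ferroportin, encoded by SLC40A1, releases it to the blood, where the oxidase hephaestin (HEPH) helps load it onto transferrin (TF), and cells take up loaded transferrin through its receptor TFRC. Ferritin, of which FTL is the light chain, stores the metal, and IREB2 encodes a protein that binds iron-responsive elements in mRNAs of this pathway when iron is low. In brain, transferrin mRNA is mainly made by oligodendrocytes, the cells that form myelin, and by the choroid plexus. Duodenum, the first part of the small intestine, is the main site of iron absorption, and ileum takes a smaller share.

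Total estimated counts per library were 14356689 to 23157291 in ileum (median 16685557) and 14168747 to 21122814 in hypothalamus (median 16146542). The tissue labels fitted their markers, as the brush border gene VIL1 lay at 469 to 1657 CPM (counts relative to the scaled library size) in ileum and at 0 to 0.298 CPM in hypothalamus, while GFAP of astrocytes lay at 0.0749 to 8.75 CPM in ileum and at 1585 to 13228 CPM in hypothalamus. A few libraries stood apart. Hypothalamus day 39 low growth replicate 1 held 3598 CPM of CGA and 1060.5 CPM of FSHB, subunits of anterior pituitary hormones, against at most 4.59 and 1.21 CPM in the other 23 hypothalamus libraries, and 17.1 CPM of TSHB against at most 0.273 CPM, while PRL lay at 0.0527 CPM. In the same group, replicate 3 held 614 CPM in the summed myelin and oligodendrocyte markers and replicate 1 held 2505 CPM, below the lowest of the high growth group (10424 CPM). Ileum day 39 low growth replicate 3 was the highest of all 24 ileum libraries in ENPP7, S100G, APOA1, ACE and PEPD, which were picked after their values were seen. The enterocyte marker FABP2 was highest there too, while the bile acid genes and GATA4 looked up there were not extreme and are given below. Ileum day 7 high growth replicate 5 was the far highest of its group in 13.5% of the 15256 genes tested. The same held for ileum day 7 low growth replicate 3 in 6.59% and for ileum day 39 low growth replicate 1 in 6.55%. Many of the values without these libraries are given beside the results, and the ranges that crossed 0 with a library left out are given at the end.

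The tissues differed in most of the iron genes. HEPH, CYBRD1, FTL and IREB2 were higher in ileum than in hypothalamus, TF and TFRC were lower, and SLC11A2 and SLC40A1 did not pass the test. In edgeR's quasi-likelihood test over all 48 libraries, 85.1% of the 16976 genes tested passed at an adjusted p under 0.05 (Benjamini-Hochberg over all genes), so that 6 of 8 members passing is near that background. Of the members 4 were higher in ileum, as were 40.7% of all genes, and 2 were lower, as were 44.4%. CPM ranges here are on each tissue's own scaling, while fold changes, overlaps and counts against medians use a joint scaling of all 48 libraries. TF had the widest gap, at 0.326 to 1.396 CPM in ileum with a median of 0.659, against 4.66 to 4181 CPM in hypothalamus with a median of 1307. On the joint scaling its ranges were 0.313 to 1.40 CPM and 4.74 to 4211 CPM. The tissues did not overlap for TF, as was so for 24.9% of all genes tested, and the log2 fold change of ileum over hypothalamus was -11.0 ± 0.57 (SE, adjusted p = 2.48e-22). Ileum counts of TF were only 5 to 26 per library. HEPH lay at 29.6 to 134.8 CPM in ileum and at 0.494 to 49.7 CPM in hypothalamus, a log2 difference of 4.53 ± 0.34. Only the pituitary gene-rich hypothalamus library reached into the ileum range of HEPH. Hypothalamus counts of HEPH were low, at 8 to 942 per library with a median of 22. CYBRD1 differed by 2.22 ± 0.19, at 32.9 to 469 CPM in ileum and 19.7 to 54.5 CPM in hypothalamus. FTL differed by 0.62 ± 0.17 and TFRC by -1.08 ± 0.13, with 23 of 24 ileum libraries above the hypothalamus median for FTL and 1 of 24 for TFRC. IREB2 differed by 0.30 ± 0.13 (edgeR adjusted p = 0.0292), a call lost with DESeq2 size factors (0.25, adjusted p = 0.0658) and with DESeq2 itself (0.25, adjusted p = 0.0632). The median of all genes stood at -0.081 under the scaling used and at -0.13 with DESeq2 size factors. SLC40A1 (-0.15 ± 0.13, adjusted p = 0.282) and SLC11A2 (0.055 ± 0.11, adjusted p = 0.628) had values in the same range in both tissues.

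**Figure D1:**
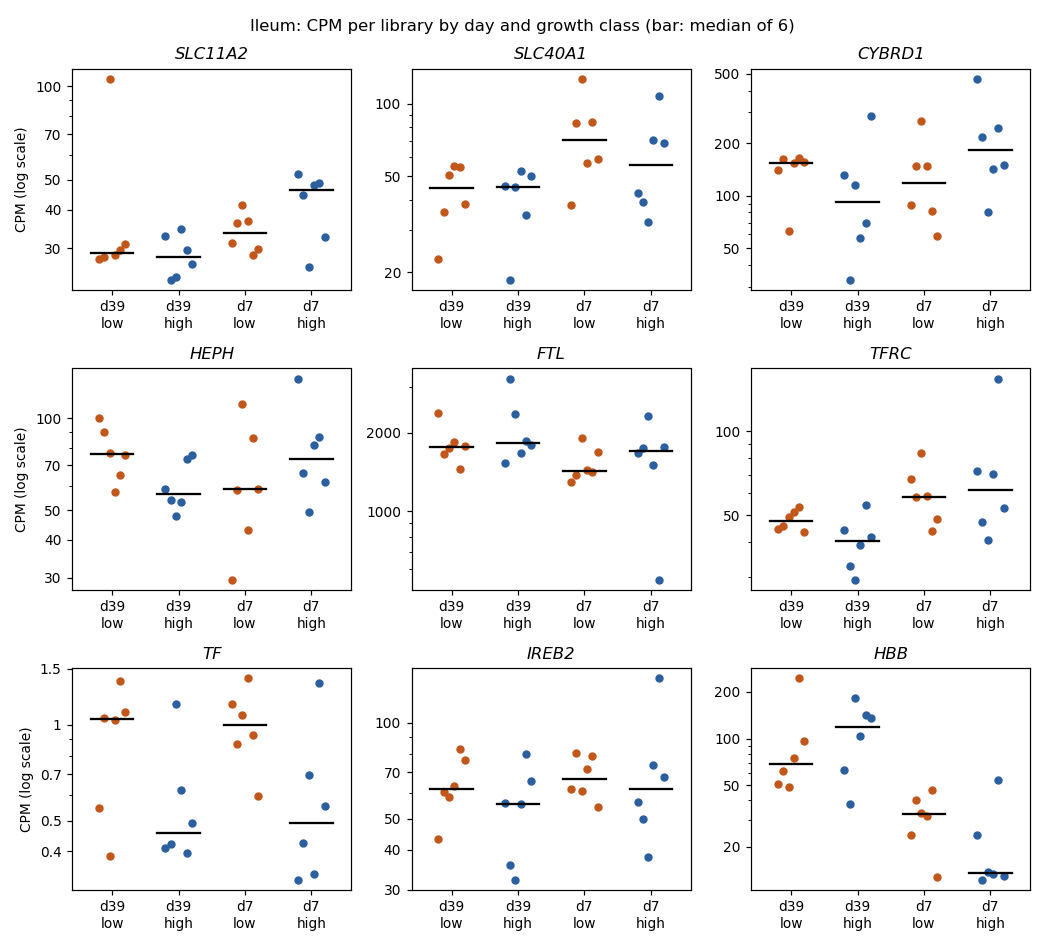
Each point is the CPM of an ileum library on a log axis, and bars are medians of 6; groups run from day 39 to day 7, low growth (orange) left of high growth (blue). SLC11A2 reads 106 CPM in 1 low growth library of day 39 and at most 52.0 CPM elsewhere, and HBB is higher on day 39.

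In ileum the uptake genes did not pass the test for growth on either day. SLC11A2, the iron importer, lay on day 39 at 27.6 to 106 CPM in low growth with a median of 29.1, against 23.8 to 34.6 CPM in high growth with a median of 28.1. The high value was replicate 3 alone, as the other low growth libraries reached at most 30.9 CPM. The log2 fold change of low over high growth was 0.54 ± 0.27 (unadjusted p = 0.0575 and adjusted p = 0.999 in edgeR), and it was 0.012 without that library. Enterocyte markers summed to 20005 CPM in replicate 3 and to 12769 to 21484 CPM in the other 5 of its group, while ENPP7 lay at 48.7 CPM there and at 0.196 to 9.75 CPM in the other 23 ileum libraries, and S100G, a calcium binding protein of the absorptive epithelium, at 223 CPM against 0.422 to 169 CPM. Of single enterocyte markers, FABP2 was the highest there, at 1611 CPM against 210 to 1448 CPM in the other 23. VIL1 (1278 CPM) and SLC5A1 (1465 CPM) were not the highest. Bile acid genes and GATA4 were within the range of the rest in that library. The bile acid transporter SLC10A2, which marks ileum, lay at 257 CPM and above 16 of the other 23, FABP6, an ileal bile acid binding protein, at 3555 CPM and above 13, and the bile acid exporter subunits SLC51A at 203 CPM and above 8 and SLC51B at 282 CPM and above 18. GATA4, a factor of the upper small intestine, lay at 0.905 CPM and above 9 of the others. The part of these genes in the SLC11A2 value was not tested. On day 7 SLC11A2 lay at 28.6 to 41.4 CPM in low growth, median 33.6, and at 26.2 to 52.0 CPM in high growth, median 46.4. All 6 low growth libraries were below the high growth median although the groups overlapped, and the log2 fold change was -0.31 ± 0.27 (adjusted p = 0.922).

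CYBRD1, the brush border reductase, varied widely within groups. On day 39 it lay at 62.4 to 165 CPM in low growth (median 155) and at 32.9 to 288 CPM in high growth (median 92.1). Replicate 3, the library with the highest SLC11A2, had the lowest CYBRD1 of the low growth group, and the other 5 lay between 140.6 and 165 CPM. The log2 fold change was 0.27 ± 0.44. Single libraries moved it, to 0.42 when low growth replicate 3 was left out, and, of the high growth libraries, to 0.079 when replicate 2 and to 0.78 when replicate 6 was. On day 7 CYBRD1 lay at 58.8 to 268 CPM in low growth (median 117.5) and at 80.9 to 469 CPM in high growth (median 183). The difference of -0.72 ± 0.44 did not pass (edgeR adjusted p = 0.863), and 1 of 6 low growth libraries was above the high growth median. It was -0.34 without high growth replicate 1, and it ran from -1.05 to -0.34 over all libraries left out singly. The difference of the growth effects was 0.99, or 0.61 to 1.49 with a library left out.

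The export genes overlapped between growth classes as well. SLC40A1, the ferroportin gene, lay on day 39 at 22.7 to 55.2 CPM in low growth (median 44.7) and at 18.6 to 52.5 CPM in high growth (median 45.3), with a log2 fold change of 0.064 ± 0.30, which turned to -0.085 without high growth replicate 2. On day 7 it lay at 38.0 to 127 CPM in low growth (median 71.1) and at 32.3 to 108 CPM in high growth (median 55.7), a difference of 0.31 ± 0.30 (adjusted p = 0.932), or 0.57 without high growth replicate 5 and 0.10 without low growth replicate 3. HEPH, the oxidase that acts with ferroportin, had 57.2 to 99.95 CPM in low growth and 47.8 to 75.5 CPM in high growth on day 39, with all 6 low growth libraries above the high growth median of 56.2 CPM. Its log2 fold change there was 0.36 ± 0.26. On day 7 it was -0.31 ± 0.26 (-0.53 without low growth replicate 3 and -0.094 without high growth replicate 1), with 29.6 to 111.6 CPM in low growth and 49.2 to 134.8 CPM in high growth. The difference of the 2 growth effects of HEPH was 0.67 ± 0.36 (unadjusted p = 0.0772, adjusted p = 0.987).

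FTL, the ferritin light chain, lay at 1446 to 2387 CPM in low growth and 1533 to 3221 CPM in high growth on day 39, and at 1292 to 1912 CPM in low growth and 548 to 2312 CPM in high growth on day 7. The log2 fold changes were -0.20 ± 0.24 on day 39 (-0.027 without high growth replicate 2) and -0.066 ± 0.24 on day 7 (-0.23 without high growth replicate 5). The low FTL value of day 7 came from high growth replicate 5, the same library that was highest of its group in TFRC (155 CPM) and IREB2 (137.5 CPM). TFRC, the transferrin receptor, lay at 43.5 to 53.6 CPM in low growth and 29.3 to 54.6 CPM in high growth on day 39, with 6 of 6 low growth libraries above the high growth median of 40.3 CPM (log2 fold change 0.26 ± 0.24). On day 7 it lay at 43.9 to 84.0 CPM in low growth and 40.9 to 155 CPM in high growth (-0.28 ± 0.24), and the value turned to 0.094 without high growth replicate 5. TF, hardly detected in ileum, lay at 0.388 to 1.37 CPM in low growth and 0.396 to 1.16 CPM in high growth on day 39 (0.63 ± 0.39), and at 0.595 to 1.396 CPM in low growth and 0.326 to 1.35 CPM in high growth on day 7 (0.72 ± 0.39, adjusted p = 0.846; 1.10 without high growth replicate 5). All 6 low growth libraries of day 7 were above the high growth median of TF, at counts too low to weigh single values. IREB2, the iron sensor, lay at 43.1 to 82.6 CPM in low growth and 32.2 to 79.7 CPM in high growth on day 39, and at 54.5 to 80.1 CPM in low growth and 37.8 to 137.5 CPM in high growth on day 7. Its log2 fold changes were 0.24 ± 0.25 on day 39 and -0.053 ± 0.25 on day 7, where the value was 0.26 without high growth replicate 5. Without that library the difference of the growth effects was 0.16 for TFRC (0.54 with it), -0.019 for IREB2 (0.30), -0.51 for SLC40A1 (-0.25), -0.47 for TF (-0.084) and 0.036 for FTL (-0.13).

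For growth in ileum, 0 of 8 members passed on day 39, on day 7 or for the difference between the days, as did 0 of 15256 genes in all, which is 0% each time. At an unadjusted p under 0.05 there were 162 genes on day 39 (1.06%), 862 on day 7 (5.65%) and 459 for the difference (3.01%), and DESeq2 called 0, 8 and 2 genes at an adjusted p under 0.05, none of them a member. For the difference of growth effects SLC11A2 gave 0.85 ± 0.39 (unadjusted p = 0.0364, edgeR adjusted p = 0.987). It was the only one of the 8 members under an unadjusted 0.05 there, and the value was 0.31 without day 39 low growth replicate 3. No member's growth groups were free of overlap on day 39 (0.164% of all genes were) or on day 7 (0.138%). The share of all genes with every low growth library on the same side of the high growth median was not computed. The median log2 fold change of the 8 members was 0.26 on day 39 beside -0.0039 over all genes tested, and -0.17 on day 7 beside -0.052. Enterocyte markers stood above 0 in 16 of 16 on day 39 (median 0.25) and in 3 of 16 on day 7 (median -0.38), with summed levels of 12769 to 21484 CPM in low growth and 9594 to 16421 CPM in high growth on day 39, and 6022 to 16838 CPM in low growth and 9934 to 19714 CPM in high growth on day 7. Their part in the members' values was not tested. The other iron lists gave 0 calls for growth on either day: these were 11 genes of iron uptake and reduction, 11 of export, oxidation and the hepcidin pathway, 3 of cytosolic chaperones and ferritin turnover, 8 of iron sensing, 16 of haem handling and 13 of mitochondrial iron and iron-sulfur clusters.

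Between day 39 and day 7 in ileum, TFRC and SLC40A1 were the members with the lowest p, both with lower values on day 39, and neither passed the test. Here 67 of 15256 genes were called (0.439%), of which 0 were members. TFRC lay at 29.3 to 54.6 CPM over the 12 libraries of day 39 (median 44.3) and at 40.9 to 155 CPM over the 12 of day 7 (median 58.2). All 12 day 39 libraries were below the day 7 median, and the log2 fold change was -0.59 ± 0.17 (unadjusted p = 0.00203, edgeR adjusted p = 0.166). SLC40A1 lay at 18.6 to 55.2 CPM on day 39 (median 45.3) and at 32.3 to 127 CPM on day 7 (median 63.8), again with 0 of 12 day 39 libraries above the day 7 median (-0.68 ± 0.22, unadjusted p = 0.00441, adjusted p = 0.242). The days overlapped for both genes, as for every member, while 0.0262% of all genes had no overlap. The share of genes with all day 39 libraries on the same side of the day 7 median was not computed. DESeq2 called 1.15% of all genes and 0 members. FTL had a value in the other direction, at 1446 to 3221 CPM on day 39 (median 1785) and 548 to 2312 CPM on day 7 (median 1589), with 10 of 12 day 39 libraries above the day 7 median (0.32 ± 0.17, adjusted p = 0.586). The other 5 members lay between -0.41 ± 0.31 for CYBRD1 and -0.070 ± 0.18 for HEPH. Single libraries moved these values: CYBRD1 ran from -0.67 to -0.22, SLC11A2, at -0.13, gave -0.40 without day 39 low growth replicate 3 (adjusted p = 0.213), IREB2, at -0.23, gave -0.083 without day 7 high growth replicate 5, and HEPH and TF had values of either sign depending on the library left out. The median over the 8 members was -0.18 beside -0.019 over all genes.

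Red cell genes rose in ileum over the same days. HBB lay at 38.0 to 244 CPM on day 39 and at 12.3 to 54.4 CPM on day 7, with 12 of 12 libraries above the day 7 median (log2 fold change 1.99 ± 0.32, edgeR adjusted p = 0.00237), and ALAS2, the erythroid enzyme that begins haem synthesis, rose by 2.05 ± 0.39 (adjusted p = 0.00922). Erythroid markers rose in 2 of 5 tested. In the uptake list 1 of 11 fell: MELTF, melanotransferrin, an iron-binding protein of the cell surface, had a median of 0.260 CPM on day 39 (0 to 1.16) and 1.61 CPM on day 7 (0.196 to 23.6), which on the log2 scale is -3.17 ± 0.60 (edgeR adjusted p = 0.00866). In the haem list 1 of 16 fell: CD163, the macrophage receptor that clears haemoglobin bound to haptoglobin, lay at 13.6 to 36.1 CPM on day 39 (median 24.9) and at 23.8 to 179.7 CPM on day 7 (median 45.7), a log2 fold change of -1.11 ± 0.23 (adjusted p = 0.0193). The highest value of both genes was in day 7 low growth replicate 3, and without that library, a step added after the data were seen, MELTF gave -2.61 (edgeR adjusted p = 0.0142) and CD163 -0.88 (adjusted p = 0.0176). Neither the export, the chaperone, the sensing nor the mitochondrial list had a call, with 0 of 11, 0 of 3, 0 of 8 and 0 of 13. Macrophage markers fell in 1 of 13, SLC11A1 (-1.26 ± 0.27, adjusted p = 0.0296), a phagosomal metal transporter, a call lost in 8 of 24 fits with a library left out (adjusted p up to 0.0691). Their summed level lay at 1023 to 1802 CPM in the day 39 groups and 448 to 1511 CPM in the day 7 groups. Crypt markers were below 0 in 4 of 5 with 0 called, and summed to 861 to 1284 CPM on day 39 and 993 to 2466 CPM on day 7. The part of these cell types in the TFRC, SLC40A1 and CD163 values was not tested.

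**Figure D2:**
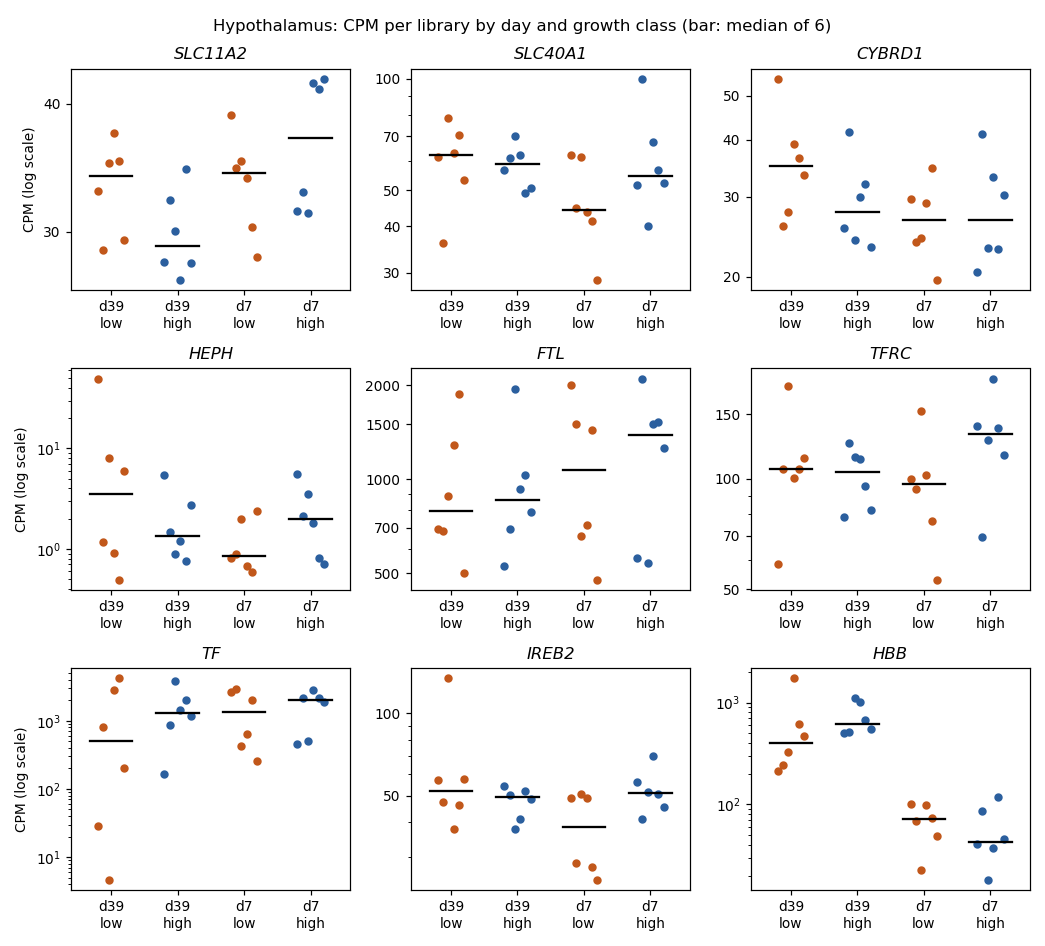
Each point is the CPM of a hypothalamus library on a log axis, with bars at medians of 6 and groups from day 39 to day 7, low growth (orange) left of high growth (blue). TF runs from 4.66 to 4181 CPM within day 39 low growth, and HBB of day 39 stands clear of day 7.

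In hypothalamus no member passed for growth either. On day 39 HEPH had the largest difference among the members, at the low counts given above. It lay at 0.494 to 49.7 CPM in low growth (median 3.56) and 0.763 to 5.49 CPM in high growth (median 1.33). The log2 fold change of 2.39 ± 0.87 (unadjusted p = 0.0112, edgeR adjusted p = 0.716) was 0.65 without replicate 1, the library with high CGA and FSHB. The part of pituitary tissue in this value was not tested. The other low growth libraries of HEPH reached 8.01 CPM and overlapped with high growth. On day 7 HEPH lay at 0.588 to 2.36 CPM in low growth and 0.710 to 5.57 CPM in high growth (-0.99 ± 0.86), and the difference of the growth effects was 3.38 ± 1.21 (adjusted p = 0.627), or 1.65 without replicate 1.

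IREB2 lay on day 39 at 37.8 to 133.9 CPM in low growth (median 52.1) and at 37.9 to 54.3 CPM in high growth (median 49.5). The high value was replicate 3, and the log2 fold change of 0.42 ± 0.25 was 0.054 without it. On day 7 it lay at 24.7 to 50.7 CPM in low growth (median 38.6) and at 41.3 to 69.6 CPM in high growth (median 51.1), with 0 of 6 low growth libraries above the high growth median. This difference was -0.46 ± 0.25 (unadjusted p = 0.0844, adjusted p = 0.686), and the difference of growth effects was 0.87 ± 0.36 (unadjusted p = 0.0225, adjusted p = 0.627), or 0.51 without replicate 3. TFRC lay at 58.6 to 179 CPM in low growth and 78.6 to 125 CPM in high growth on day 39 (0.12 ± 0.25; 0.25 without replicate 1 and -0.065 without replicate 3), and at 53.2 to 153 CPM in low growth and 69.5 to 187 CPM in high growth on day 7 (-0.43 ± 0.25, adjusted p = 0.703). Only 1 of 6 low growth libraries of day 7 was above the high growth median of TFRC.

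TF, the transferrin gene, varied more within groups than any other member, with a pooled within-group SD of 2.28 on the log2 CPM scale beside 0.17 for SLC11A2. On day 39 it lay at 4.66 to 4181 CPM in low growth (median 509) and at 164 to 3873 CPM in high growth (median 1307), a log2 fold change of -0.24 ± 0.99 (0.00064 without replicate 1 and 0.022 without replicate 3). On day 7 it lay at 261 to 2898 CPM in low growth (median 1344) and at 452 to 2855 CPM in high growth (median 2007), a log2 fold change of -0.16 ± 0.98. With such spread a difference of this size was not detectable. FTL lay at 501 to 1884 CPM in low growth and 528 to 1953 CPM in high growth on day 39 (0.0013 ± 0.41; 0.070 without replicate 1), and at 477 to 2005 CPM in low growth and 541 to 2104 CPM in high growth on day 7 (-0.14 ± 0.41).

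SLC11A2, SLC40A1 and CYBRD1 were the steadiest members in hypothalamus. SLC11A2 lay between 26.9 and 42.3 CPM over all 24 libraries, with log2 fold changes of 0.15 ± 0.11 on day 39 and -0.14 ± 0.11 on day 7. SLC40A1 gave 0.049 ± 0.21 on day 39 (-0.038 without low growth replicate 3) and -0.38 ± 0.21 on day 7 (unadjusted p = 0.0815), where low growth lay at 28.7 to 62.3 CPM and high growth at 40.0 to 100.1 CPM. CYBRD1 gave 0.30 ± 0.20 on day 39 (0.14 without low growth replicate 1) and -0.087 ± 0.20 on day 7. On day 7 all 8 members had log2 fold changes below 0, with a median of -0.27 beside 0.0100 over all genes, and on day 39 7 of 8 were above 0, with a median of 0.14 beside 0.021. With a single library left out, CYBRD1, FTL and TF could change sign on day 7, and SLC40A1, FTL, TFRC and TF on day 39. Some members also ran together across libraries, so these signs are not independent. Of 15865 genes, 0 were called on either day or for the difference (0%), with 864 (5.45%) on day 39, 1217 (7.67%) on day 7 and 1233 (7.77%) for the difference at an unadjusted p under 0.05. DESeq2 called 18, 7 and 1, none of them a member. No member's growth groups were free of overlap (0.0945% of genes on day 39 and 0.384% on day 7). For libraries all on the same side of the other group's median, the share of genes was not computed. The 6 other iron lists had 0 calls among their 10, 10, 3, 8, 17 and 13 tested genes of uptake, export, chaperones, sensing, haem and mitochondria.

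Between day 39 and day 7 in hypothalamus, 5 of 15865 genes were called (0.0315%) and 0 were members, and DESeq2 called 0.208% and again 0 members. HEPH had the largest value at 1.48 ± 0.60 (unadjusted p = 0.0223, adjusted p = 0.471), which was 0.62 without day 39 low growth replicate 1, and its medians were 1.33 CPM on day 39 and 1.36 CPM on day 7. SLC11A2 lay at 26.9 to 37.4 CPM on day 39 and 28.4 to 42.3 CPM on day 7 (-0.16 ± 0.077, unadjusted p = 0.0505, adjusted p = 0.518). The other 6 members lay between -0.27 ± 0.29 for FTL and 0.29 ± 0.18 for IREB2, which was 0.11 without day 39 low growth replicate 3. HBB lay at 215 to 1724 CPM on day 39 and at 18.3 to 118.6 CPM on day 7, with no overlap, as was so for 0.0189% of genes (log2 fold change 3.39 ± 0.37, edgeR adjusted p = 2.94e-05). Erythroid markers rose in 4 of 7 tested, namely HBB, ALAS2 (3.30 ± 0.31), HBM (3.27 ± 0.42) and AHSP, the chaperone of alpha globin (2.79 ± 0.38). The iron lists had 0 calls. Myelin and oligodendrocyte markers were below 0 in 13 of 13 (median -0.77, 0 called), with a summed level of 614 to 159329 CPM in the day 39 groups and 15800 to 171055 CPM in the day 7 groups.

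**Figure D3:**
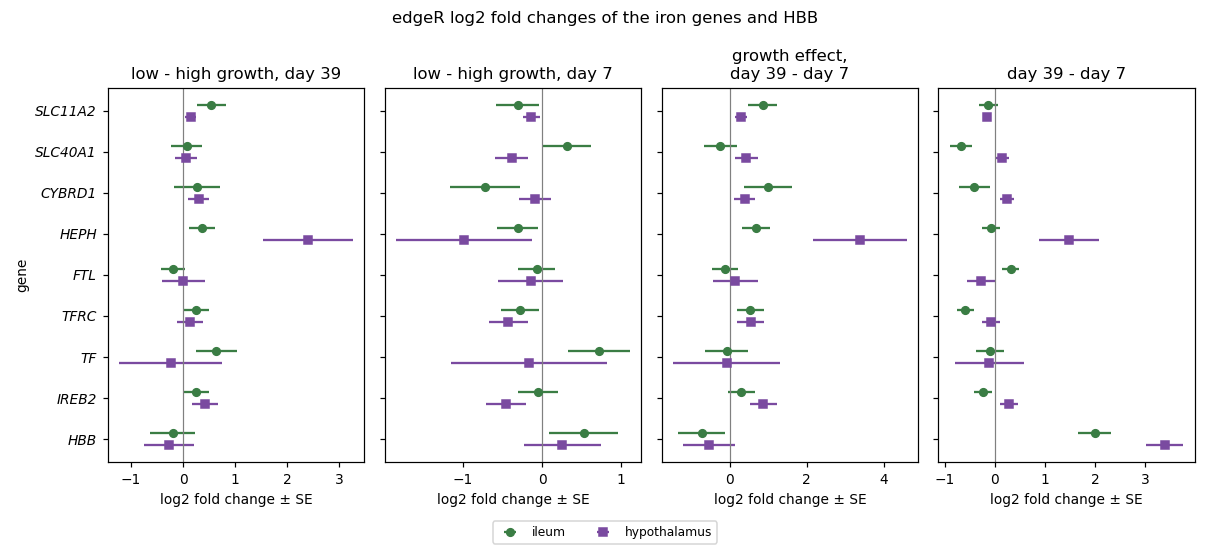
Log2 fold changes with SE from edgeR for the 8 iron genes and HBB in ileum (circles) and hypothalamus (squares), for low minus high growth on day 39 and on day 7, the difference of these effects, and day 39 minus day 7. HBB is the gene that passed, in the last panel, at 1.99 in ileum and 3.39 in hypothalamus.

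Within groups, some iron genes followed HBB from library to library. The relation was computed on deviations of log2 CPM from the mean of each day and growth group, over the 24 libraries of a tissue, so that the difference between days does not enter. Permutation p-values came from 100000 shuffles within groups, two-sided, and were adjusted over 16 relations. In ileum 3 of 8 members passed by Spearman's rho, and all 3 had more mRNA in libraries with more HBB. Of all genes tested other than HBB, 15.4% had an absolute rho with HBB at least as large as the lowest of these 3, so relations of this size were common. IREB2 had r = 0.60 (permutation p = 0.00547) and rho = 0.57 (permutation p = 0.00743, adjusted p = 0.0264). TF had r = 0.65 (permutation p = 0.00181) and rho = 0.56 (permutation p = 0.00825, adjusted p = 0.0264), at the low counts given above. CYBRD1 had r = 0.50 (permutation p = 0.0215) and rho = 0.52 (permutation p = 0.0159, adjusted p = 0.0424), and it was above 0 in each of the 4 groups, at rho of 0.26 to 0.83 over 6 libraries each. FTL went the other way, with r = -0.59 (permutation p = 0.00875, adjusted p = 0.0265) and rho = -0.47 (permutation p = 0.0282, adjusted p = 0.0645), so that it passed by r and not by rho. SLC40A1 likewise passed by r (0.56, permutation p = 0.0089, adjusted p = 0.0265) and not by rho (0.45, permutation p = 0.0396, adjusted p = 0.0792). TFRC (rho 0.33), HEPH (0.14) and SLC11A2 (0.089) did not pass by either.

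These ileum relations rest on few libraries. Without the 2 libraries farthest from the median of HBB, r was 0.79 for IREB2, 0.55 for TF, 0.52 for CYBRD1, -0.67 for FTL and 0.55 for SLC40A1, and 1 member (IREB2, rho = 0.71) passed by rho. The count of members that passed was 0 without day 7 high growth replicate 5, day 7 low growth replicate 6, day 39 high growth replicate 2 or day 39 low growth replicate 5, each left out alone. It was 1 without day 7 high growth replicate 2 or day 39 low growth replicate 1, and 5 without day 7 low growth replicate 3. Day 7 high growth replicate 5 was the highest of its group in HBB (54.4 CPM), TFRC, IREB2 and TF and the lowest in FTL. Its summed crypt markers were 2300 CPM and its macrophage markers 448 CPM, against 993 to 2466 CPM and 870.3 to 1485 CPM in the other 5 of the group. FTL and IREB2 themselves ran against each other in ileum, with r = -0.84 (permutation p = 8e-05) and rho = -0.76 (permutation p = 0.00026, adjusted p = 0.00485 over 56 pairs of members), and r = -0.72 without the 2 farthest libraries. Of the other ileum pairs, SLC40A1 with FTL (r = -0.57), SLC40A1 with IREB2 (0.62), FTL with TFRC (-0.74) and TFRC with IREB2 (0.73) passed by r and not by rho. For these ileum pairs the share of all genes that ran as closely with a member was not computed. Without the 2 libraries farthest from the median of the first gene, r was -0.64, 0.67, -0.34 and 0.66 in that order, so FTL with TFRC rested largely on those libraries. With the mean of 16 enterocyte genes removed from both sides, a step added after the data were seen, rho with HBB was 0.64 for TF, 0.56 for IREB2, 0.52 for CYBRD1 and -0.47 for FTL, and 1 member (TF) passed the adjustment.

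**Figure D4:**
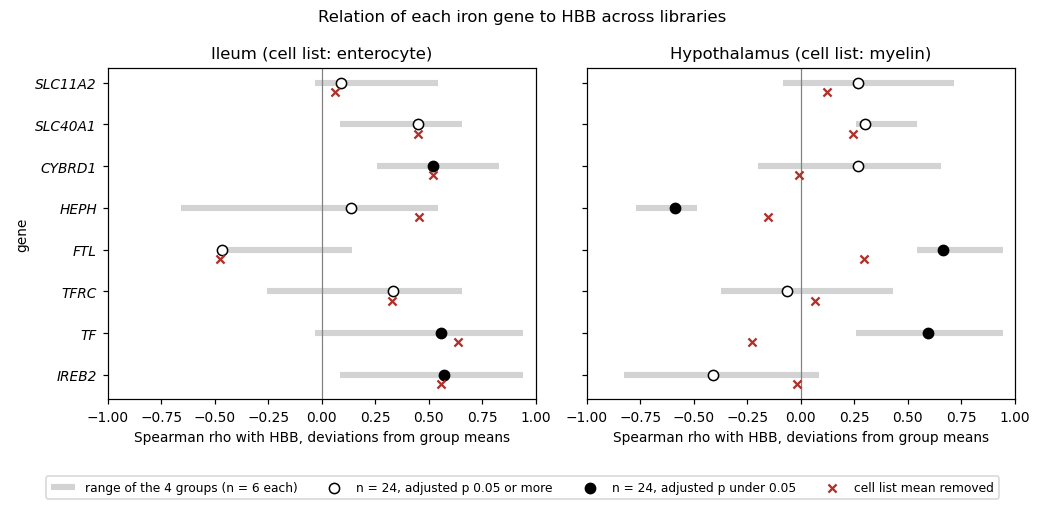
Spearman rho of each iron gene with HBB over 24 libraries, as deviations from group means (filled circles: adjusted p under 0.05), with grey bars for the range over the 4 groups of 6 and crosses for rho after the mean of a cell type list was removed. In ileum the crosses stay near the circles for 7 of 8 genes, HEPH being the exception. In hypothalamus the crosses lie nearer 0 than the circles or past it, with the largest moves for TF, HEPH, IREB2 and FTL.

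In hypothalamus 3 of 8 members passed as well, where 19.5% of all genes other than HBB had an absolute rho at least as large as the lowest of the 3, and FTL had the opposite sign of that in ileum. FTL rose with HBB, at r = 0.64 (permutation p = 0.0021) and rho = 0.66 (permutation p = 0.00128, adjusted p = 0.0205), with rho above 0 in all 4 groups (0.54 to 0.94). TF rose with HBB at r = 0.57 (permutation p = 0.0115) and rho = 0.60 (permutation p = 0.00524, adjusted p = 0.0264). HEPH fell at r = -0.58 (permutation p = 0.0116) and rho = -0.59 (permutation p = 0.00749, adjusted p = 0.0264), below 0 in all 4 groups (-0.77 to -0.49). The HEPH values rest on its low hypothalamus counts, given above. IREB2 had rho = -0.41 (permutation p = 0.0632, adjusted p = 0.112), and SLC40A1, SLC11A2, CYBRD1 and TFRC lay between -0.064 and 0.30. Without the 2 libraries farthest from the median of HBB, r was 0.60 for FTL, 0.46 for TF and -0.52 for HEPH, and FTL alone passed by rho. Without day 39 low growth replicate 4, the library highest in HBB at 1724 CPM, 1 member passed (rho 0.50 for TF, -0.55 for HEPH), and without replicate 1 or replicate 3 of that group 3 passed. Whether the relation of FTL to HBB differs between the tissues was not tested beyond these values.

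The same 3 genes also followed myelin in hypothalamus, and whether more closely than HBB was not tested. Of all genes outside the myelin list, 10.7% had an absolute rho with its mean at least as large as the lowest of the 3. The mean log2 CPM of 13 myelin and oligodendrocyte genes, taken up after the data were seen, gave r = 0.99 and rho = 0.99 with TF over the 24 libraries (permutation p = 1e-05 each, the smallest that 100000 shuffles give; adjusted p = 0.00016 over 16 relations). FTL had r = 0.69 (permutation p = 0.00013) and rho = 0.79 (permutation p = 4e-05), and r = 0.95 without the 2 libraries farthest from the median of the myelin mean. HEPH had r = -0.82 (permutation p = 0.00025) and rho = -0.84 (permutation p = 3e-05), again at low counts. HBB itself had r = 0.61 (permutation p = 0.00636) and rho = 0.63 (permutation p = 0.00292) with the myelin mean. With the myelin mean removed, rho with HBB was 0.29 for FTL, -0.23 for TF and -0.15 for HEPH, and 0 of 8 members passed. Members that had not passed before moved as well, IREB2 from -0.41 to -0.017 and CYBRD1 from 0.27 to -0.0096. FTL also ran with the mean of 43 cytosolic ribosomal protein genes (r = 0.95, rho = 0.94, permutation p = 1e-05 each). This was not particular to FTL, as TF (rho = 0.80, permutation p = 3e-05) and HBB itself (rho = 0.63, permutation p = 0.00304) rose with that mean too. HEPH fell with it (rho = -0.60, permutation p = 0.00377). The share of all genes that followed it was not computed. With the ribosomal mean removed, rho of FTL with HBB was 0.37 and again 0 members passed. Library 3 of day 39 low growth, at 4.66 CPM of TF, had 172 CPM of MBP, the myelin basic protein gene, and library 5 of the same group, at 4181 CPM of TF, had 71931 CPM of MBP. Among member pairs in hypothalamus, HEPH with TF (r = -0.82, permutation p = 0.00047), FTL with TF (r = 0.65, permutation p = 0.00021) and HEPH with FTL (r = -0.59, permutation p = 0.00162) passed over 56 pairs by r and by rho. SLC40A1 with FTL (r = 0.60, permutation p = 0.00613, adjusted p = 0.0426) passed by r only. The share of all genes that ran as closely with these members was not computed, and TF, FTL and HEPH each followed the myelin mean.

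**Figure D5:**
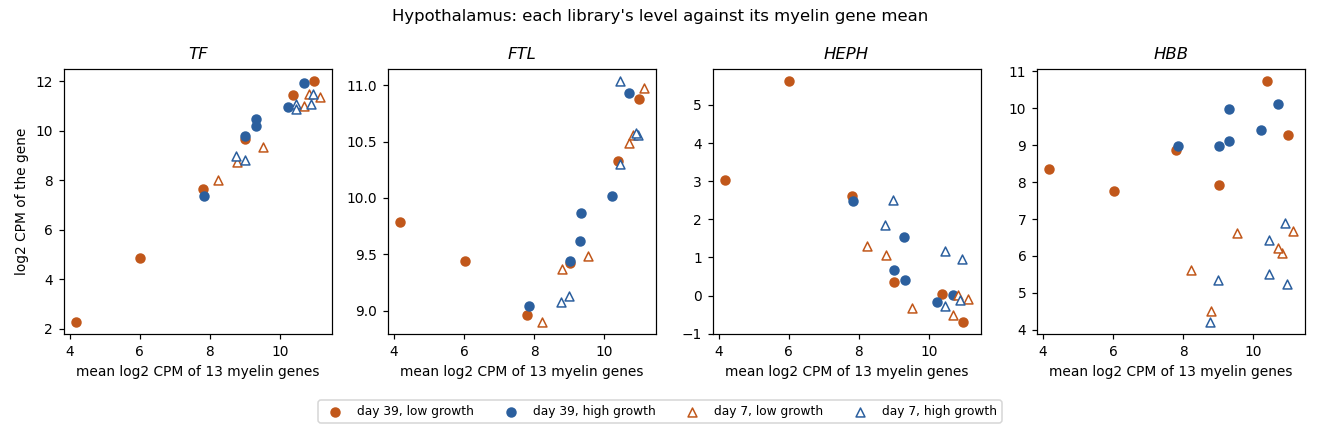
Log2 CPM of TF, FTL, HEPH and HBB in the 24 hypothalamus libraries against the mean log2 CPM of 13 myelin genes, with day 39 as circles and day 7 as triangles, low growth in orange and high growth in blue. TF falls on a line (r = 0.99), HEPH slopes down, FTL slopes up except for the 2 libraries lowest in myelin, and HBB splits by day.

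In ileum HEPH followed the enterocyte markers. The mean of 16 enterocyte genes had r = 0.81 (permutation p = 1e-05) and rho = 0.74 (permutation p = 0.00011, adjusted p = 0.00044) with HEPH, and r = -0.52 (permutation p = 0.0153) and rho = -0.59 (permutation p = 0.00451, adjusted p = 0.0144) with TF. SLC11A2 (rho 0.25), CYBRD1 (0.17), SLC40A1 (-0.071) and FTL (0.32) did not pass, nor did HBB (-0.12). Without the 2 libraries farthest from the median of the enterocyte mean, r was 0.75 for HEPH and -0.49 for TF. These were 2 of 8 members, where 3.02% of all genes outside the list had an absolute rho at least as large as that of TF.

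When each library's HBB entered the edgeR model as a covariate, the differences between days grew. In ileum 6 of 8 members then passed for day 39 against day 7, where 4222 of 15256 genes did (27.7%): SLC40A1 (-1.38 ± 0.30), CYBRD1 (-1.46 ± 0.50), TFRC (-1.09 ± 0.23), TF (-1.12 ± 0.38) and IREB2 (-0.90 ± 0.22) fell and FTL rose (0.91 ± 0.25), with adjusted p between 0.00794 and 0.0349. In hypothalamus 2 of 8 passed, where 4335 of 15865 genes did (27.3%): HEPH rose (5.40 ± 1.11) and FTL fell (-2.20 ± 0.55). HBB was above the day 7 median in 12 of 12 day 39 libraries of each tissue, so in this model the day and the covariate share most of their variation and their parts cannot be told apart. For growth the covariate left 0 members called on either day in both tissues.

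The genes whose level ran most like a member's over the 24 libraries were, in ileum, ATP2B1 (rho 0.80), SERPINB8 (0.74) and PAQR3 (0.74) for SLC11A2, ATP2B1 (0.86), CCDC88A (0.80) and PPIP5K2 (0.80) for TFRC, and AGTPBP1 (0.74), AMN1 (0.74) and SLC16A10 (0.71) for CYBRD1. ATP2B1, a plasma membrane calcium pump, headed the lists of SLC11A2 and TFRC alike. For TF in hypothalamus they were DAPK2 (0.98), VPS50 (0.97) and DEGS1 (0.97). These are Spearman correlations across libraries that also share depth, day and cell makeup, and they were ranked over 11362 genes in ileum and 11891 in hypothalamus.

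The members' positions on Sscrofa11.1 are chromosome 15, 94140635 to 94161793 for SLC40A1 (ENSSSCG00000027157) and 77649124 to 77695141 for CYBRD1 (ENSSSCG00000025049), chromosome X, 52314911 to 52397384 for HEPH (ENSSSCG00000012363), chromosome 6, 54231121 to 54232756 for FTL (ENSSSCG00000003153), chromosome 13, 133976765 to 133997554 for TFRC (ENSSSCG00000011848), and chromosome 7, 47481539 to 47529199 for IREB2 (ENSSSCG00000001756). TF (ENSSSCG00000011640) has 2 neighbouring RefSeq genes of that name on chromosome 13, at 74862502 to 74907059 and 74930655 to 74970599, so reads may be shared between them and its level is uncertain. For SLC11A2 (ENSSSCG00000034039) no coordinates are given here.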

How the data were processed

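RNA-seq libraries of ileum and hypothalamus were made from polyA RNA (average integrity number 7.8), per the labels' protocols. The authors deposited estimated counts per gene, not scaled for library size, of which 52.7% were not whole (to 1e-06). Per the submitters' processing notes the tools were Trim Galore, kallisto and DESeq2 with Sscrofa11.1. The annotation and tool versions were not given in the sources used here. A deposited table of normalized values was not used.

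Symbols came from a RefSeq table of that build. Estimated counts were rounded, genes kept by filterByExpr (minimum count 10, minimum total 15), and fitted per tissue over 24 libraries and 4 groups with TMM scaling and edgeR 4.0.16 in R 4.3.3 (limma 3.58.1). The quasi-likelihood F test was two-sided, with Benjamini-Hochberg adjustment over all genes and a threshold of 0.05. The tissue contrast used all 48 libraries. Log2 CPM used a prior count of 2. DESeq2 1.42.0 was an alternative. The fits were also run on simulated counts with the same relative spread for every gene and no libraries that stood apart. Such counts do not show how the fits behave on these libraries. The biological coefficient of variation common to all genes came to 0.349 for ileum and 0.435 for hypothalamus. All members are named whatever their result, and of each other iron list at most 4 genes of lowest p. The members and lists were chosen with earlier results of these data known. Replicates are separate samples only as the labels list them, so p-values measure the spread between samples, which may be partly technical. No batch, litter or sex is given in the labels.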

Additional observations from a re-analysis of the deposited data

Results flagged for a closer look

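In 9 of the 64 sets of 6 libraries formed by 8 members in 8 groups, 1 library lay far from the other 5 relative to the group's range. Chance marks about 1 set in 20, which is 3.2 here, but such libraries were more common than that over all genes tested, in 5.63% to 21.9% of genes by group and 11.8% on average, so that the members' 14.1% is near the share of genes in general. No explanation of these values was tested.

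In ileum, day 39 low growth replicate 3 stood apart in both uptake genes and in opposite directions, at 105.8 CPM of SLC11A2 (27.6 to 30.9 in the other 5) and 62.4 CPM of CYBRD1 (140.6 to 165). That library was the far highest of its group in 0.649% and the far lowest in 0.21% of all genes tested. Day 7 high growth replicate 5 stood apart at 155 CPM of TFRC (40.9 to 72.0 in the others), 137.5 CPM of IREB2 (37.8 to 73.9) and 1.35 CPM of TF (0.326 to 0.697), and it was the far highest of its group in 13.5% of genes and the far lowest in 3.01%. Day 39 high growth replicate 3 held 1.16 CPM of TF (0.396 to 0.622).

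In hypothalamus, day 39 low growth replicate 1, the library rich in CGA and FSHB, held 49.7 CPM of HEPH (0.494 to 8.01) and was far highest in 2.57% of genes. Replicate 3 of that group, the library poorest in myelin genes, held 133.9 CPM of IREB2 (37.8 to 57.6) and was far highest in 7.96%. Day 39 high growth replicate 3 held 1953 CPM of FTL (528 to 1036) and was far highest in 2.78%.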

How the results depend on the processing

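No paired analysis was possible because the replicate numbers follow only the order of the samples and tie no piglets across groups. Alternatives were DESeq2 size factors, DESeq2, no filter on low counts, globin-free library sizes, cell marker or HBB covariates and single-day fits, and for HBB other scalings. Of single member values, 1820 of 1920 with a library left out and 476 of 536 under other settings kept their direction and side of the threshold. No member passed for growth or day in the main fits, so there this asks only that the sign held and no call arose. Sizes could still move far in values counted as kept. On day 39 the growth value of ileum SLC11A2 went from 0.54 to 0.012, and that of hypothalamus HEPH from 2.39 to 0.65. The cause of each change was not tested. With HBB as covariate 6 members passed for day in ileum and 2 in hypothalamus. Members passing for HBB were 0 in each tissue without centring, 1 in each without the 2 farthest libraries, 1 in hypothalamus on total-count CPM, and 1 in ileum and 0 in hypothalamus with the cell or the ribosomal list mean removed (both added after seeing the data). Leaving out a library they ranged over 0 to 5 in ileum and 1 to 4 in hypothalamus. For day, all genes called were 176 (ileum) and 33 (hypothalamus) with DESeq2, 101 without ileum day 7 high growth replicate 5 (45 at the lowest) and 14 without hypothalamus day 7 high growth replicate 2, and for ileum growth on day 7 they were at most 1 with a library left out and 8 with DESeq2.

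Values turned sign as follows. With HBB as covariate, ileum FTL day 7 gave 0.19, ileum difference of growth effects 0.093 (SLC40A1) and 0.33 (TF), hypothalamus TF 0.14 on day 39 and 0.90 for the difference, and hypothalamus day -0.28 (SLC40A1) and 0.21 (TFRC). With the enterocyte covariate, FTL day 7 gave 0.026, TF 0.38 for the difference and 0.27 for day. With the myelin covariate, hypothalamus day gave -0.23 (HEPH), 0.15 (FTL) and 0.62 (TF). Hypothalamus FTL on day 39 gave -0.0075 with DESeq2 size factors and with DESeq2, -0.00041 unfiltered and -0.0093 in the day's 12 libraries. Without centring, rho with HBB gave -0.36 (SLC11A2), -0.14 (SLC40A1), 0.14 (FTL) and -0.32 (TFRC) in ileum and -0.26 (SLC11A2) in hypothalamus, where total-count CPM gave -0.25 for SLC11A2. In hypothalamus the myelin mean removed gave -0.0096 (CYBRD1), 0.066 (TFRC) and -0.23 (TF), and the ribosomal mean removed -0.015 (SLC11A2) and 0.037 (TFRC).

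With a library left out, these ranges crossed 0. In ileum on day 39, SLC40A1 ran from -0.085 to 0.19. In ileum on day 7, FTL ran from -0.23 to 0.081, TFRC -0.40 to 0.094 and IREB2 -0.17 to 0.26. For the ileum difference, FTL ran from -0.28 to 0.038, TF -0.47 to 0.23 and IREB2 -0.019 to 0.43. For ileum day, HEPH ran from -0.15 to 0.039 and TF -0.26 to 0.088. In hypothalamus on day 39, SLC40A1 ran from -0.038 to 0.16, FTL -0.29 to 0.29, TFRC -0.065 to 0.25 and TF -1.03 to 0.22. In hypothalamus on day 7, CYBRD1 ran from -0.17 to 0.043, FTL -0.37 to 0.060 and TF -0.47 to 0.060. For the hypothalamus difference, FTL ran from -0.15 to 0.43 and TF -0.86 to 0.38. For hypothalamus day, TFRC ran from -0.17 to 0.017 and TF -0.49 to 0.045. In hypothalamus the rho of TFRC with HBB ran from -0.21 to 0.11.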
